A study of Mus musculus with 8 samples.

Results

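The AP-1 group of transcription factors was followed by 10 genes, Jun, Junb, Jund, Fos, Fosb, Fosl1, Fosl2, Atf3, Batf and Maff. They were picked by their symbols, with earlier results of these data known. All 10 were among the 55226 genes of the table. Fosl1 lay below a filter on low values, a mean of at least 3 over the samples, so that 9 members were among the 11543 genes tested. RNA was sequenced from 8 samples of C57BL/6 macrophages (BMDMs), which were derived from bone marrow over 7 days in the growth factor M-CSF. The groups were PtipcKO (cKO) cells after LPS, cKO cells at 0 h, PtipWT (WT) cells after LPS and WT cells at 0 h, with 2 samples each. Cells at 0 h are called resting. PTIP is the protein of Paxip1, LPS is a bacterial cell wall component, and treated cells had received 100 ng/ml for 6 h. The labels name neither the promoter that drives the recombinase nor the deleted exons, and they do not say whether samples with 1 number share a mouse. The p-values therefore measure the spread between these samples. Values are rlog values, a log2 expression scale on which genes with few reads are drawn to their mean, and differences (log2) carry the standard error (SE) of a limma fit to all 8 samples.

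AP-1 factors are bZIP proteins that bind DNA as pairs, most often a Jun protein with a Fos protein. Many of their genes are early response genes, switched on within minutes of a signal through MAP kinases, and many of their transcripts are short-lived. In macrophages, signals from Toll-like receptors induce AP-1, which acts beside NF-kB at genes of cytokines and matrix proteases. Jun and Fos are the classic activating pair, Junb and Jund are the other Jun proteins, Fosb, Fosl1 and Fosl2 are Fos relatives, Atf3 can repress inflammatory genes, Batf pairs with Jun proteins, and Maff is a small Maf protein without an activation domain.

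RefSeq promoter sequences (GRCm38.p6) were found for 9 of the 10 members. The 250 bases before the start site are shown for 5 of them. Jun, Fos, Fosb and Junb are shown because they were the lowest members in cKO relative to WT, and Atf3 for contrast, as a member that rose with LPS. The windows are chr4:95052223-95052472 (minus strand) for Jun, chr12:85473640-85473889 (plus strand) for Fos, chr7:19310046-19310295 (minus strand) for Fosb, chr8:84978749-84978998 (minus strand) for Junb and chr1:191183334-191183583 (minus strand) for Atf3. Capitals mark matches to 6 motifs searched on both strands. These were the AP-1 site TGANTCA, the CRE-like site TGACNTCA, the shorter TGACGT, which can overlap the CRE-like site, TATAAA, the NF-kB consensus and the CArG box.
Jun: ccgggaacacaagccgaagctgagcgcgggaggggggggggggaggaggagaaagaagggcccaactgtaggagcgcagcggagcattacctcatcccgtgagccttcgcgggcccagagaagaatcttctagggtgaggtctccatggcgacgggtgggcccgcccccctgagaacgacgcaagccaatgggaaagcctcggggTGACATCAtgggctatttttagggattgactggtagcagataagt
Fos: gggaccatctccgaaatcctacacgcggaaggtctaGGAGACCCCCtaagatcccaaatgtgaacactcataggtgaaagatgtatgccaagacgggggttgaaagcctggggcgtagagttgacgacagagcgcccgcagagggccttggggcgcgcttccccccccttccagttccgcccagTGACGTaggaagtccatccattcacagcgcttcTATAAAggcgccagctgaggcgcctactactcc
Fosb: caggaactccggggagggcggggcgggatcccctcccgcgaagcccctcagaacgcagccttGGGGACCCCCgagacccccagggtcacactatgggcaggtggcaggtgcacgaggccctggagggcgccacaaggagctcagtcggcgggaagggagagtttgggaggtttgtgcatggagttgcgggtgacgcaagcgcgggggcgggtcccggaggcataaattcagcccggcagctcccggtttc
Junb: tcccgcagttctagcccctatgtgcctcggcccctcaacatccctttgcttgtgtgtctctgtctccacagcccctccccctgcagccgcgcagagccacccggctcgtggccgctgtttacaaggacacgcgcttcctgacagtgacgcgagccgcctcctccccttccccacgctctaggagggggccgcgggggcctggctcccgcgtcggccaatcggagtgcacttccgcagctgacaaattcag
Atf3: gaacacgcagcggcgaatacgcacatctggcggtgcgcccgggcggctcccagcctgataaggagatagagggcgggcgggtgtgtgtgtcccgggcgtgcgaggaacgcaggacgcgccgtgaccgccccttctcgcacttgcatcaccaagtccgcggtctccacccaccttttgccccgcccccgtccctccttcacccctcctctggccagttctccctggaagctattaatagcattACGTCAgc

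Counted from the start site, the Jun window held the CRE-like letters TGACATCA from -45 to -38. The Fos window held TGACGT from -66 to -61, TATAAA from -33 to -28 and an NF-kB match on the other strand from -214 to -205. The Fosb window held an NF-kB match from -188 to -179, and the Atf3 window held TGACGT on the other strand from -8 to -3. None of the 6 motifs was found in the Junb window, and TGANTCA and the CArG box in none of the 5. Of 32851 such mouse windows 6.75% held TGANTCA, 7.49% TGACNTCA, 6.47% TGACGT, 12.4% TATAAA, 7.25% the NF-kB consensus and 1.47% the CArG box. In GENCODE M21 (GRCm38) the Atf3 gene spans 191170296 to 191218039 (minus strand, 3 transcripts). The Atf3 window therefore lies inside the gene, and another annotated start lies upstream of it. A match describes letters and shows no binding, and bases outside these windows were not searched.

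Paxip1 was lower in every library labelled cKO, with rlog values of 2.54 and 2.63 in LPS-treated cKO cells, 2.54 and 2.48 in resting cKO cells, 3.82 and 4.08 in LPS-treated WT cells and 4.50 and 4.50 in resting WT cells. All 8 macrophage markers passed the filter. Their summed level (log2) was 18.41 to 18.49 in LPS-treated cKO cells and 18.37 to 18.69 in resting cKO cells, below the 19.36 to 19.45 in LPS-treated WT cells and 19.16 to 19.28 in resting WT cells. Most of that sum was Lyz2, the macrophage lysozyme gene. The summed neutrophil markers, of which 2 of 8 passed (S100a8 and Camp), were higher in cKO, at 8.54 to 8.76 after LPS and 7.94 to 8.03 at 0 h, against 7.57 to 8.12 in WT after LPS and 6.82 to 7.42 in WT at 0 h. Most of that sum was S100a8, whose cKO samples lay above the WT samples at each time. Camp overlapped between genotypes at 0 h, and S100a9 and Ngp, below the filter, overlapped at both times, with lower means in cKO. Retnlg was listed at 0 in every sample, and Ly6g was at -1.98 or less. The filter was passed by 0 of 4 T cell markers, 0 of 4 erythroid markers, 1 of 4 B cell markers, 1 of 5 fibroblast markers and 3 of 4 dendritic cell markers. The dendritic cell sum was 10.11 to 10.18 in LPS-treated cKO cells, 8.62 to 8.88 in resting cKO cells, 10.19 to 11.17 in LPS-treated WT cells and 8.68 to 9.23 in resting WT cells, so it moved with LPS, and the fibroblast sum also did, at 6.11 to 6.20, 3.72 to 4.14, 6.37 to 6.40 and 3.96 to 4.25 in the same groups. The B cell sum was 3.58 to 4.52, 5.04 to 5.23, 3.66 to 4.02 and 4.69 to 5.22 in these groups. Most of the dendritic cell sum was Ccr7, most of the fibroblast sum Pdgfrb and most of the B cell sum Cd79b. The other fibroblast and B cell markers lay below the filter. Flt3, a dendritic cell marker also below it, did not rise with LPS in cKO. The part of these marker differences in the results was not tested. In bulk RNA, fewer cells of a type and less RNA per cell cannot be told apart.

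**Figure D1:**
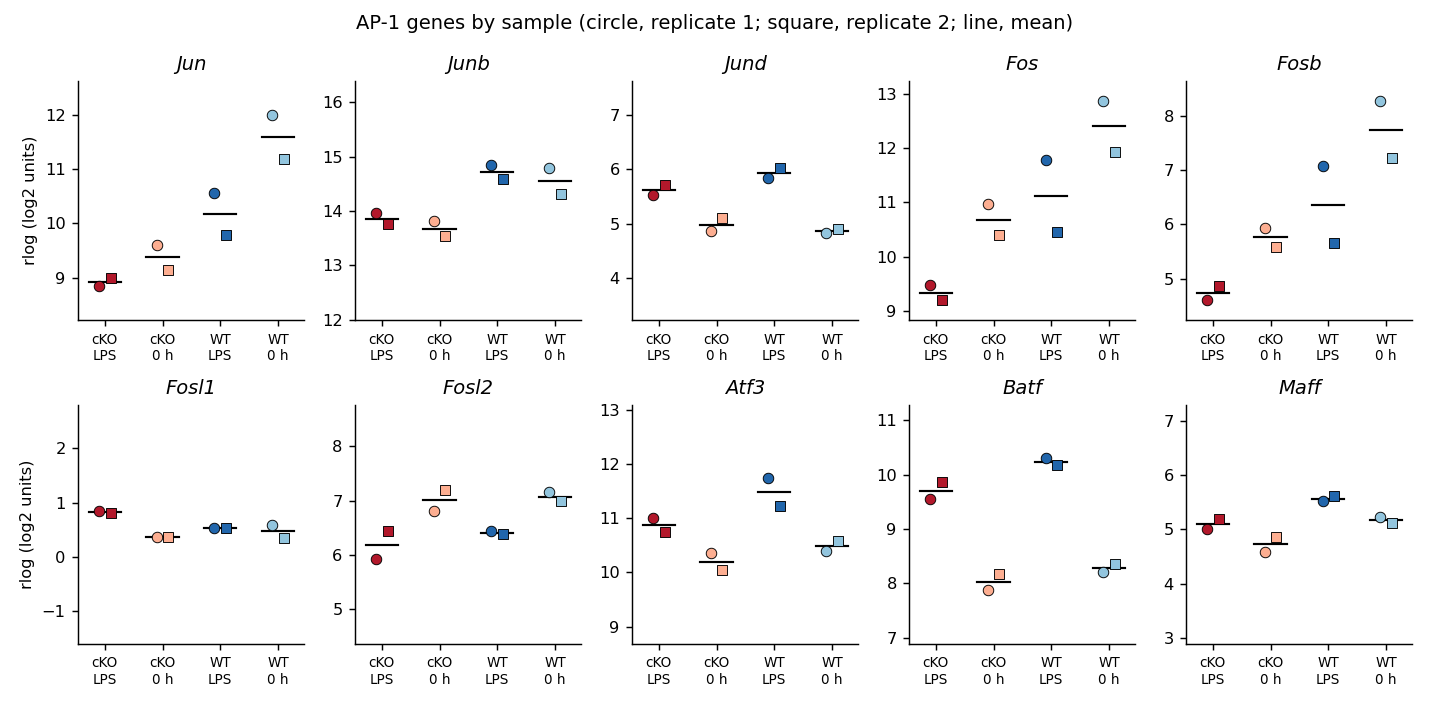
The rlog value (log2 units) of each AP-1 gene in the 8 samples, with circles for replicate 1, squares for replicate 2 and a line at the mean of each group; every panel spans the same number of log2 units. Jun, Fos and Fosb were lowest in the cKO LPS samples and highest in the WT samples at 0 h, whereas Batf and Atf3 were highest in WT after LPS.

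Levels between genes were compared on the rlog scale less the log2 of the longest annotated transcript length in kb. Junb (1809 bases, 1 exon, chromosome 8) had the highest such level in all 4 groups, at 13.01 in LPS-treated cKO cells, 12.82 in resting cKO cells, 13.86 in LPS-treated WT cells and 13.70 in resting WT cells. Its lowest sample lay above the highest sample of every other member. Fos (2108 bases, 4 exons, chromosome 12) had the next highest mean at 0 h, with 9.60 in cKO and 11.32 in WT, although its samples overlapped those of Atf3 in cKO. After LPS it had 8.26 in cKO and 10.04 in WT. The means of Atf3 (1984 bases, chromosome 1) and Batf (955 bases, chromosome 12) were then above it, Atf3 with 9.89 in cKO and 10.49 in WT, Batf with 9.77 in cKO and 10.30 in WT. After LPS the samples of Atf3 and Batf overlapped in both genotypes, and those of Fos overlapped both in WT, so these orders are not resolved. In cKO the Fos samples, at 8.39 and 8.12, lay below all samples of Atf3 and Batf. Jun (3189 bases, 1 exon, chromosome 4) had 7.24 in LPS-treated cKO cells, 7.70 in resting cKO cells, 8.50 in LPS-treated WT cells and 9.92 in resting WT cells. In WT at 0 h the samples of Jun overlapped those of Atf3.

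Jund, Fosb, Maff and Fosl2 formed a lower tier, with group means from 2.82 to 5.82 on that scale. Fosb headed it in WT at 0 h with 5.82, and was last in it in cKO after LPS with 2.82. Fosl1 was lowest in every group, between -0.53 and -0.07. Jund (1668 bases, 1 exon, chromosome 8) had 4.88 in LPS-treated cKO cells, 4.24 in resting cKO cells, 5.20 in LPS-treated WT cells and 4.12 in resting WT cells, far below Junb.

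Whether the authors' counting used strand is not given in the sources used here, and several members share bases with a gene on the other strand. In GENCODE M21 (GRCm38) Junos covers 689 bases of the Jun gene (95049034 to 95052222, minus strand), Prdx2 covers 351 bases of Junb (84974484 to 84978718, minus strand), and Ccdc85b covers 2767 bases of Fosl1. Junos had rlog values from 3.32 to 4.58 over the 8 samples. Prdx2, a peroxiredoxin gene, had 11.28 to 11.31 in LPS-treated cKO cells and 10.77 to 10.93 in resting cKO cells. In WT it had 11.11 to 11.22 after LPS and 10.61 to 10.84 at 0 h. An antisense gene across 919 bases of Jund was listed at 0 in every sample. Whether these overlaps affect the levels given for the members, among them the low level of Jund, was not tested.

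**Figure D2:**
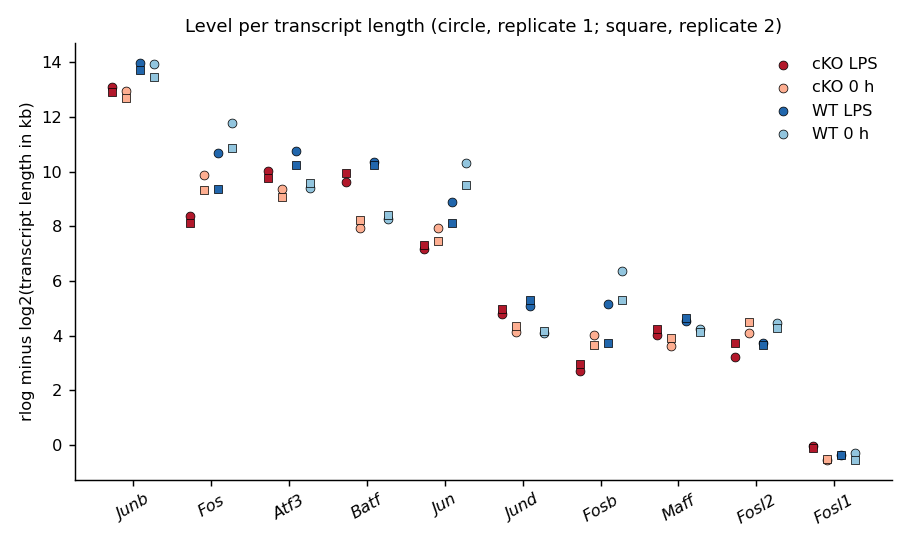
Level of each AP-1 gene in every sample, as rlog less log2 of transcript length in kb, with circles for replicate 1 and squares for replicate 2; genes run from the highest mean to the lowest. Junb lay above all others, Fosl1 near 0 lay below all others, and Fos, Fosb and Jun spread most widely over the groups.

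With LPS members moved in both directions, as all tested genes did. Batf, Atf3 and Jund rose in both genotypes, Fos and Fosl2 fell in both, and Jun and Fosb passed as lower in WT. In cKO 3 members rose and 2 fell, where of all tested genes 19.6% were called higher and 17.5% lower, 37.0% in all. In WT 3 rose and 4 fell, where 22.5% were called higher and 19.7% lower, 42.2% in all. Samples did not overlap for 4 members that were higher after LPS and 4 that were lower, in each genotype. Of all tested genes 35.6% were higher and 36.9% lower without overlap in cKO, and 35.7% and 35.6% in WT. The member counts without overlap were near these shares and are no result about the members as a group. The median difference of the 9 was 0.18 in cKO and 0.16 in WT, beside -0.02 and -0.01 over all tested genes.

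Batf had the widest rise. Its rlog values were 9.55 and 9.87 in LPS-treated cKO cells and 7.87 and 8.17 in resting cKO cells, and 10.30 and 10.17 in LPS-treated WT cells and 8.21 and 8.35 in resting WT cells. In both genotypes the LPS samples lay well above those at 0 h. The difference was 1.69 (SE 0.16, adjusted p = 0.00012) in cKO and 1.95 (SE 0.16, adjusted p = 4.24e-05) in WT, and both calls held in 17 of 17 alternative settings or sample sets.

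Atf3, a stress-induced factor, had 11.01 and 10.74 in LPS-treated cKO cells and 10.36 and 10.04 in resting cKO cells, and 11.73 and 11.23 in LPS-treated WT cells and 10.39 and 10.58 in resting WT cells. It rose by 0.67 (SE 0.20, adjusted p = 0.0272) in cKO and by 0.99 (SE 0.20, adjusted p = 0.00409) in WT. Quantile normalization lowered these values to 0.30 (adjusted p = 0.255) in cKO and 0.43 (adjusted p = 0.111) in WT. The cKO call also ended with no filter (adjusted p = 0.119) and without cKO 0 h replicate 2 (adjusted p = 0.142), cKO LPS replicate 1 (adjusted p = 0.159) or cKO LPS replicate 2 (adjusted p = 0.0569).

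Jund, the Jun protein usually present at rest, had 5.53 and 5.71 in LPS-treated cKO cells and 4.86 and 5.10 in resting cKO cells, and 5.84 and 6.03 in LPS-treated WT cells and 4.82 and 4.90 in resting WT cells. Its LPS samples lay above the others in each genotype. The rise was 0.64 (SE 0.18, adjusted p = 0.0252) in cKO and 1.08 (SE 0.18, adjusted p = 0.00188) in WT. The cKO call ended without cKO 0 h replicate 1 (adjusted p = 0.135), cKO LPS replicate 1 (adjusted p = 0.0599) or cKO LPS replicate 2 (adjusted p = 0.138). In the authors' deposited table the log2 fold change of Jund was 0.88 (adjusted p = 0.259) in cKO and 1.44 (adjusted p = 0.0271) in WT.

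Maff and Junb did not pass in either genotype. Maff had 5.01 and 5.20 in LPS-treated cKO cells and 4.58 and 4.87 in resting cKO cells, and 5.52 and 5.61 in LPS-treated WT cells and 5.23 and 5.11 in resting WT cells. Its differences were 0.38 (SE 0.19, adjusted p = 0.147) in cKO and 0.39 (SE 0.19, adjusted p = 0.121) in WT. Junb, whose samples overlapped between times, differed by 0.18 (SE 0.21) in cKO and 0.16 (SE 0.21) in WT, and quantile normalization turned both to -0.28 and -0.52 without a call. Fosl1 was listed between 0.81 and 0.85 in LPS-treated cKO cells, 0.36 and 0.37 in resting cKO cells, 0.53 and 0.54 in LPS-treated WT cells and 0.35 and 0.59 in resting WT cells, too low to test.

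**Figure D3:**
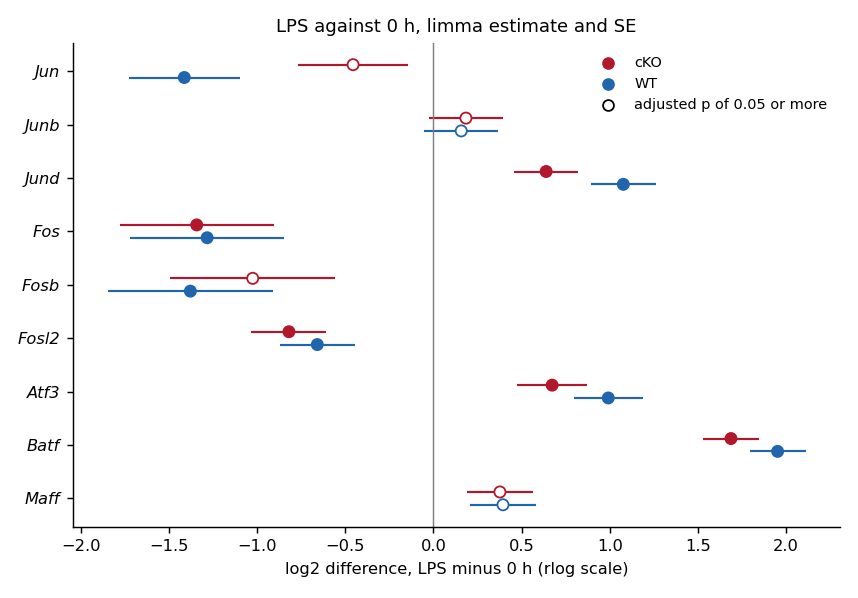
The log2 difference of each tested member between LPS and 0 h (LPS minus 0 h, rlog scale) in cKO and in WT, with bars for the SE; filled points had an adjusted p under 0.05 in limma. Batf, Atf3 and Jund lie right of 0, Jun, Fos, Fosb and Fosl2 left of it, and the Jun difference was -0.46 in cKO and -1.41 in WT.

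In cKO Jun had 8.84 and 8.99 after LPS and 9.60 and 9.15 at 0 h, a difference of -0.46 (SE 0.31, adjusted p = 0.292). In WT it had 10.56 and 9.80 after LPS and 12.00 and 11.18 at 0 h, and it fell by 1.41 (SE 0.31, adjusted p = 0.0072). The LPS samples lay below those at 0 h in each genotype. The 2 differences themselves differed by 0.96 (SE 0.44), with an unadjusted p = 0.0618 and an adjusted p = 0.764, so a smaller LPS change in cKO was not shown. The WT call ended with no filter (adjusted p = 0.0563).

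Fos had 9.47 and 9.20 in LPS-treated cKO cells and 10.96 and 10.39 in resting cKO cells, and 11.77 and 10.45 in LPS-treated WT cells and 12.86 and 11.93 in resting WT cells. It fell by 1.34 (SE 0.44, adjusted p = 0.0413) in cKO and by 1.28 (SE 0.44, adjusted p = 0.0437) in WT. In the authors' deposited table the log2 fold changes were -1.51 (adjusted p = 1.63e-07) in cKO and -1.36 (adjusted p = 0.251) in WT. The 2 WT samples after LPS were 1.32 apart. The WT value was -0.62 (adjusted p = 0.241) without WT LPS replicate 2 and -0.82 (adjusted p = 0.248) without WT 0 h replicate 1. The WT call ended without either cKO LPS library (adjusted p = 0.0668 each), and the cKO call without any 1 of the 4 cKO libraries (adjusted p = 0.0556 to 0.180). Both also ended with no filter, without the variance trend and in a robust fit (adjusted p = 0.053 to 0.197), and the WT call in the 4 WT samples alone (adjusted p = 0.0757).

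Fosb, the other early Fos gene, had 4.61 and 4.87 in LPS-treated cKO cells and 5.94 and 5.59 in resting cKO cells, and 7.07 and 5.65 in LPS-treated WT cells and 8.27 and 7.21 in resting WT cells. It fell in WT by 1.38 (SE 0.47, adjusted p = 0.0433), and its difference in cKO was -1.02 (SE 0.47, adjusted p = 0.121). The WT call held in 7 of 17 alternatives. The WT value was -0.67 (adjusted p = 0.24) without WT LPS replicate 2 and -0.85 (adjusted p = 0.254) without WT 0 h replicate 1, and the call also ended without any 1 of the 4 cKO libraries (adjusted p = 0.0518 to 0.0656). It ended as well with no filter, without the variance trend, in a robust fit and in the 4 WT samples alone (adjusted p = 0.0506 to 0.172). In cKO the difference passed in a fit of the 4 cKO samples alone (adjusted p = 0.0116) and without WT LPS replicate 1 (adjusted p = 0.0438) or 2 (adjusted p = 0.043). In the authors' deposited table Fosb was called lower in both genotypes, at -1.52 (adjusted p = 0.0481) in cKO and -1.56 (adjusted p = 0.0144) in WT.

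Fosl2, a Fos relative with slower kinetics, had 5.93 and 6.44 in LPS-treated cKO cells and 6.82 and 7.20 in resting cKO cells, and 6.45 and 6.38 in LPS-treated WT cells and 7.15 and 6.99 in resting WT cells. It fell by 0.82 (SE 0.21, adjusted p = 0.0169) in cKO and by 0.66 (SE 0.21, adjusted p = 0.0359) in WT. The cKO call ended without cKO 0 h replicate 2 (adjusted p = 0.103) or cKO LPS replicate 1 (adjusted p = 0.114), the WT call without any 1 of the 4 WT libraries (adjusted p = 0.0781 to 0.154), and both with no filter (adjusted p = 0.0642 in cKO and 0.104 in WT). In the authors' deposited table the log2 fold changes were -1.01 (adjusted p = 0.0575) in cKO and -0.84 (adjusted p = 0.0994) in WT.

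The counts of called members moved with single libraries. In cKO the 5 called members became 3 without cKO 0 h replicate 1, 2 without cKO 0 h replicate 2, 1 without cKO LPS replicate 1 and 2 without cKO LPS replicate 2. In WT the 7 became 4 without WT 0 h replicate 1 and 4 without WT LPS replicate 2. No member passed in the interaction, the LPS change in cKO less that in WT, with limma. At an unadjusted p under 0.05 there were 0 of 9, and over all genes 0% were called, with 751 at that unadjusted p.

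Between genotypes, Jun, Fos, Fosb and Junb stood out by the size of their differences, from -0.85 to -2.22. Both cKO samples lay below both WT samples at each time for these genes, and also for Atf3, Batf and Maff. The macrophage marker sum was also lower in cKO and the neutrophil marker sum higher, as given above. After LPS the cKO samples of 8 of the 9 tested members lay below both WT samples, where 29.7% of all tested genes lay lower and 23.3% higher without overlap. At 0 h those of 7 did, where 21.9% lay lower and 19.3% higher. With limma 0 of 9 passed after LPS, where 1.51% of all genes were called higher and 2.46% lower, 3.97% in all, and 7 had an unadjusted p under 0.05. At 0 h 1 passed, Jun, where 0.0520% of all genes were called higher and 0.199% lower, 0.251% in all, and 5 had an unadjusted p under 0.05. The median difference of the 9 was -0.61 after LPS and -0.44 at 0 h, beside -0.03 and -0.01 over all tested genes.

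In the LPS comparisons of the authors' deposited table, 2 members were higher and 2 lower in cKO, beside 15.9% and 11.5% of tested genes, and 3 higher and 2 lower in WT, beside 16.1% and 12.1%. The authors' deposited table called 4 members lower in cKO after LPS and 4 at 0 h, where 3.02% and 0.901% of the tested genes were called lower in it and 2.56% and 0.624% higher. In the authors' deposited table they were Jun, Junb, Fos and Fosb at each time, and 0 members were called higher. For Jun the authors' deposited table gave a log2 fold change of -1.40 (adjusted p = 8.9e-05) after LPS and -2.47 (adjusted p = 1.46e-12) at 0 h. For Fos the authors' deposited table gave -2.07 (adjusted p = 5.52e-07) after LPS and -1.92 (adjusted p = 1.06e-06) at 0 h. For Fosb the authors' deposited table gave -2.42 (adjusted p = 0.00352) after LPS and -2.46 (adjusted p = 1.67e-06) at 0 h, and for Junb -0.88 (adjusted p = 0.00137) after LPS and -0.96 (adjusted p = 0.0102) at 0 h.

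The limma difference of Jun was -1.26 (SE 0.31, adjusted p = 0.0641) after LPS and -2.22 (SE 0.31, adjusted p = 0.0389) at 0 h. Both cKO samples lay below both WT samples at each time, and at 0 h the gap between the nearest samples was wider than that between either pair of replicates. The 0 h call held in 7 of 16 alternatives. It ended without WT 0 h replicate 1 (-1.81, adjusted p = 0.202) or cKO 0 h replicate 2 (-1.99, adjusted p = 0.192) and without either of the cKO LPS libraries (adjusted p = 0.114 each). It also ended in a fit of the 4 samples at 0 h alone (adjusted p = 0.123) and under 4 other settings, which were a filter at a mean of 5, no filter, no variance trend and a robust fit (adjusted p = 0.052 to 0.166). After LPS Jun passed in the 4 samples of that time alone (adjusted p = 0.0396) and without WT 0 h replicate 1 (adjusted p = 0.0472), WT 0 h replicate 2 (adjusted p = 0.0474) or WT LPS replicate 2 (adjusted p = 0.0486).

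Fos differed by -1.78 (SE 0.44, adjusted p = 0.0622) after LPS and -1.72 (SE 0.44, adjusted p = 0.222) at 0 h. Fosb differed by -1.62 (SE 0.47, adjusted p = 0.0885) after LPS and -1.98 (SE 0.47, adjusted p = 0.198) at 0 h. Neither passed at either time in this fit, although their cKO samples were below the WT samples throughout. Without WT LPS replicate 2 both passed after LPS, Fos at -2.44 (adjusted p = 0.0346) and Fosb at -2.33 (adjusted p = 0.0374).

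Junb had 13.96 and 13.76 in LPS-treated cKO cells and 13.81 and 13.54 in resting cKO cells, and 14.84 and 14.59 in LPS-treated WT cells and 14.80 and 14.31 in resting WT cells. All 4 cKO samples lay below all 4 WT samples. The difference was -0.85 (SE 0.21, adjusted p = 0.0629) after LPS and -0.88 (SE 0.21, adjusted p = 0.204) at 0 h. After LPS it passed in the 4 samples of that time alone (adjusted p = 0.0396) and without WT 0 h replicate 1 (adjusted p = 0.0467) or 2 (adjusted p = 0.0482), and quantile normalization lowered its size to -0.40.

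Averaging both times gives a comparison with more samples on each side, added after the values were seen. If samples of 1 number share a mouse, each side would hold 2 animals measured at both times, and the fit treats their samples as independent. Of the 9 tested members 4 fell, Jun by 1.74 (SE 0.22, adjusted p = 0.0069), Fos by 1.75 (SE 0.31, adjusted p = 0.0176), Fosb by 1.80 (SE 0.33, adjusted p = 0.02) and Junb by 0.87 (SE 0.15, adjusted p = 0.0158). In linear terms on the rlog scale these are ratios of 0.30, 0.297, 0.287 and 0.548. Over all genes 2.88% were called higher and 4.14% lower in this comparison, 7.02% in all. Jun kept its call in 15 of 15 alternatives, with adjusted p = 0.0014 to 0.0487. The others lost theirs with no filter (adjusted p = 0.0744 to 0.117) and without cKO LPS replicate 1 (adjusted p = 0.0561 to 0.0759) or 2 (adjusted p = 0.0769 to 0.0877). Fos and Fosb also lost theirs without WT 0 h replicate 1 (adjusted p = 0.0554 and 0.0624), Fosb without cKO 0 h replicate 2 (adjusted p = 0.0522), and Junb under quantile normalization, at -0.52 (adjusted p = 0.0887).

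**Figure D4:**
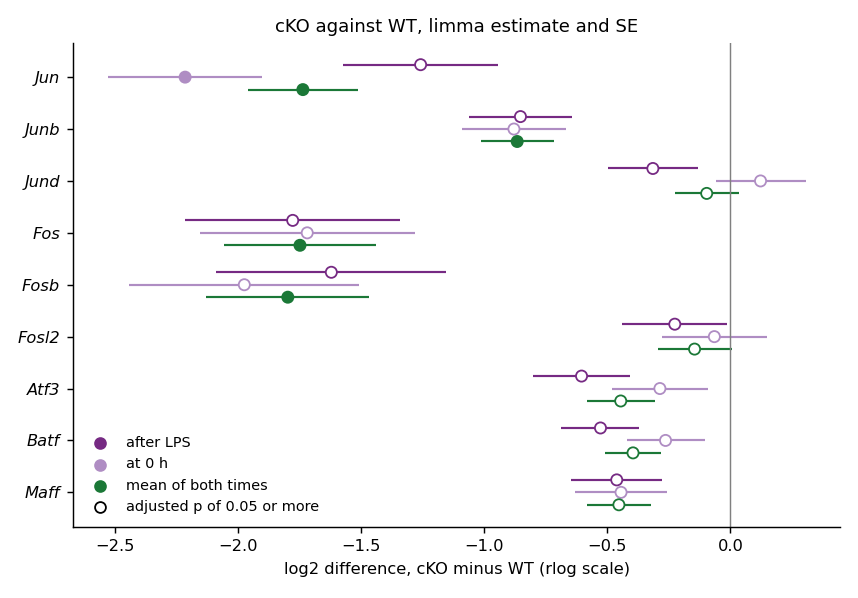
The log2 difference of each tested member between cKO and WT (cKO minus WT, rlog scale) after LPS, at 0 h and averaged over both times, with bars for the SE; filled points had an adjusted p under 0.05 in limma. Jun, Fos, Fosb and Junb lie farthest left of 0, and Jund at 0 h is the 1 point to its right.

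The other members differed less. Averaged over both times, Atf3 differed by -0.45 (SE 0.14, adjusted p = 0.097), Batf by -0.40 (SE 0.11, adjusted p = 0.0739), Maff by -0.45 (SE 0.13, adjusted p = 0.0795), Fosl2 by -0.15 (SE 0.15, adjusted p = 0.609) and Jund by -0.10 (SE 0.13, adjusted p = 0.706). After LPS the cKO samples of Atf3, Batf, Maff and Jund lay below the WT samples, with differences of -0.61, -0.53, -0.46 and -0.32 (adjusted p = 0.119, 0.0974, 0.196 and 0.361). At 0 h those of Atf3, Batf and Maff did as well, with limma differences of -0.29, -0.26 and -0.44 (adjusted p = 0.657, 0.601 and 0.443). Fosl2 overlapped at both times, at -0.23 after LPS and -0.07 at 0 h. Without WT LPS replicate 2 the averaged Atf3 value was -0.57 and passed (adjusted p = 0.0395).

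Among the tested members, replicate 1 was above replicate 2 in both WT groups for Jun, Fos, Fosb, Junb and Fosl2, by most for Jun, Fos and Fosb. Egr1, outside AP-1, had the same order, and each gap rests on 1 pair of samples. Replicate 1 exceeded replicate 2 in WT after LPS by 0.76 for Jun, 1.32 for Fos and 1.42 for Fosb, and in WT at 0 h by 0.82, 0.94 and 1.05 for the same genes. In cKO the gaps were smaller, at -0.14, 0.27 and -0.25 after LPS and 0.45, 0.56 and 0.35 at 0 h. Over all tested genes 3.41% in WT after LPS and 2.57% in WT at 0 h had replicates at least 0.9 apart. In cKO 1.25% did after LPS and 2.82% at 0 h. The gaps of Jun were under 0.9 in every group. The gap of Fos in WT after LPS, 1.32, was as wide as its mean change with LPS in WT.

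The 3 genes most like each tested member, by Pearson's r of rlog over the 8 samples, included another member for Jun, Fos and Fosb and for no other member. Fos and Fosb were closest to each other (r = 0.987), and Fosb was near Jun (r = 0.976), as were Fmnl3 and Katnbl1. The closest gene was Spty2d1 for Junb (r = 0.991), Cep85l for Jund (r = 0.994), Ets1 for Fosl2 (r = 0.974), Eml4 for Atf3 (r = 0.987), Dcaf13 for Batf (r = 0.9975) and Pilrb2 for Maff (r = 0.984). Jund followed Batf at r = 0.968, whereas r between Jun and Atf3 was 0.0015. These samples fall into 4 groups, so r describes mostly the pattern of the group means.

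Early response genes outside AP-1, such as Egr, Klf and Dusp genes, are switched on by many of the same signals. With LPS 7 of 20 tested rose and 4 fell in cKO, and 6 rose and 3 fell in WT, beside 19.6% of all genes called higher and 17.5% lower in cKO and 22.5% and 19.7% in WT. In WT the counts were near these shares. Gadd45b and Nfkbia, the gene of an NF-kB inhibitor, rose by 2.57 and 2.44 in cKO and by 2.72 and 2.11 in WT, while Egr2 fell by 1.82 in cKO and by 1.93 in WT. Nr4a1 fell by 1.60 in cKO (adjusted p = 0.0397), and its difference of -1.42 in WT did not pass (adjusted p = 0.0549). Btg2 fell by 1.28 in cKO and by 1.10 in WT. The Nr4a1 call in cKO ended without any 1 of the 4 cKO libraries, and the Btg2 call in WT without WT 0 h replicate 1 or WT LPS replicate 2 (-0.58 and -0.85, adjusted p = 0.131 and 0.123). The 11 calls in cKO became 7 with no filter, 6 without cKO LPS replicate 1 and 7 without cKO LPS replicate 2.

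Between genotypes, averaged over both times 8 of 20 tested fell and 1 rose, beside 4.14% lower and 2.88% higher of all genes, with a median of -0.66 beside -0.02 over all tested genes. Egr1, a zinc finger factor, had 7.86 and 7.20 in LPS-treated cKO cells and 9.52 and 7.86 in resting cKO cells, and 10.81 and 9.44 in LPS-treated WT cells and 11.38 and 10.07 in resting WT cells. It fell by 2.31 (SE 0.45, adjusted p = 0.0239), and the call ended in 5 of 15 alternatives, among them without WT 0 h replicate 1 or WT LPS replicate 1 and without either of the cKO LPS libraries. Dusp1, a phosphatase that switches off MAP kinases, had 12.31 and 12.23 in LPS-treated cKO cells and 12.30 and 12.11 in resting cKO cells, and 13.99 and 13.56 in LPS-treated WT cells and 14.26 and 13.59 in resting WT cells. It fell by 1.61 (SE 0.17, adjusted p = 0.00414) and kept the call in 15 of 15 alternatives. Ier2 went the other way, with 9.01 and 10.31 in LPS-treated cKO cells and 8.35 and 10.28 in resting cKO cells, and 7.51 and 7.80 in LPS-treated WT cells and 8.05 and 7.63 in resting WT cells. Its rise of 1.74 (SE 0.42, adjusted p = 0.0443) held in 4 of 15 alternatives. The list's 9 calls became 2 without either cKO LPS library, 4 without WT 0 h replicate 1 or WT LPS replicate 1, and 3 with no filter.

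At single times the list held fewer calls. After LPS 3 of 20 fell, where 2.46% of all genes were called lower, with Dusp1 at -1.51 (adjusted p = 0.0178), Klf6 at -0.81 (adjusted p = 0.0197) and Ppp1r15a, and at 0 h 2 fell, where 0.199% were called lower, Dusp1 at -1.71 (adjusted p = 0.0347) and Ppp1r15a at -1.20 (adjusted p = 0.0284). After LPS the count called in either direction was 6 in the 4 samples of that time alone, 5 lower and 1 higher, and 0 with no filter. It was 0 without WT LPS replicate 1 or either one of the cKO LPS libraries, 5 without either cKO 0 h library and 0 under quantile normalization. At 0 h it was 0 with no filter, and also without WT 0 h replicate 1 or cKO 0 h replicate 2 and without either one of the cKO LPS libraries, and 0 in the 4 samples alone.

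Of 22 tested genes with textbook AP-1 sites, 7 fell in cKO averaged over both times and 0 rose, beside 4.14% lower and 2.88% higher of all genes. Their median was -0.30, beside -0.02 over all tested genes. Ptgs2, the inducible cyclooxygenase gene, had 11.04 and 11.30 in LPS-treated cKO cells and 6.72 and 6.53 in resting cKO cells, and 13.51 and 13.42 in LPS-treated WT cells and 9.80 and 8.12 in resting WT cells. It fell by 2.31 (SE 0.31, adjusted p = 0.0069), a call that ended with no filter (adjusted p = 0.0552). Mmp13, a collagenase gene, had 8.92 and 8.22 in LPS-treated cKO cells and 6.05 and 5.65 in resting cKO cells, and 12.46 and 11.06 in LPS-treated WT cells and 7.64 and 6.63 in resting WT cells. It fell by 2.23 (SE 0.34, adjusted p = 0.0101), and its call ended with no filter and without cKO LPS replicate 2 (adjusted p = 0.0783 at most). After LPS 4 of the 22 fell, where 2.46% of all genes were called lower, Mmp13 (-3.19, adjusted p = 0.017), Ptgs2 (-2.29, adjusted p = 0.0306), Il6 and Il1b, and at 0 h 0 passed with limma, with 5 at an unadjusted p under 0.05. The 4 became 0 without WT LPS replicate 1 or either one of the cKO LPS libraries, 2 without WT LPS replicate 2, 7 in the 4 samples alone, and 1 with no filter or quantile normalization. At 0 h 3 passed without WT 0 h replicate 2. The 7 became 1 with no filter, 4 with WT LPS replicate 2 left out, 3 with cKO LPS replicate 1 and 2 with cKO LPS replicate 2 left out. With LPS 11 of the 22 rose in cKO and 15 in WT, beside 19.6% of all genes called higher in cKO and 22.5% in WT. Among them were Il6, by 4.80 in cKO and by 5.76 in WT, Tnf, by 4.75 in cKO and by 4.41 in WT, and Mmp13, by 2.72 in cKO and by 4.63 in WT. Mt1, a metallothionein gene, fell by 0.88 in cKO and by 0.65 in WT, calls that held in 14 of 17 alternatives in cKO and 9 of 17 in WT. The cKO call of Mt1 ended without cKO 0 h replicate 1 or cKO LPS replicate 2, and the WT value was -0.32 (adjusted p = 0.207) without WT LPS replicate 2. Several of these genes are also NF-kB targets, and their change was not tied to AP-1 by any test.

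**Figure D5:**
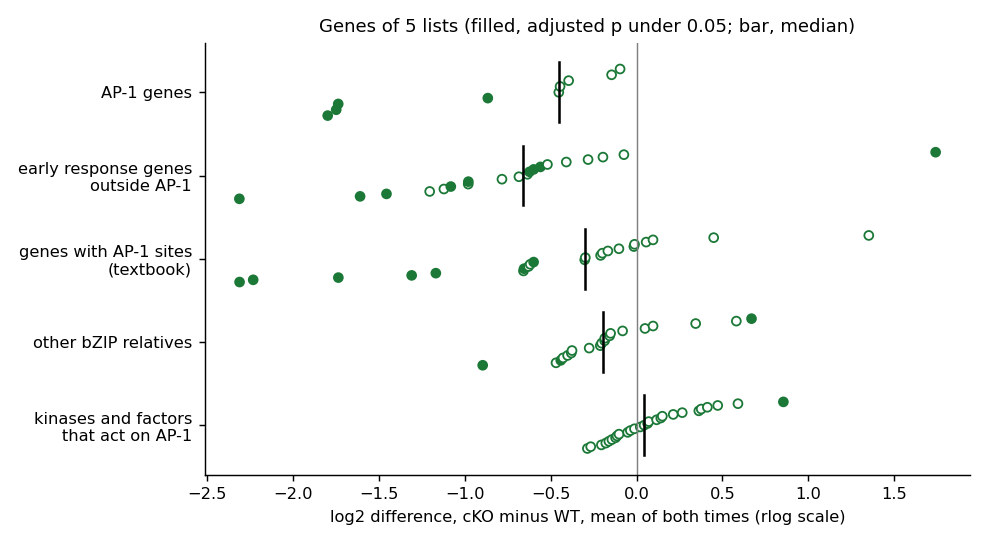
The log2 difference between cKO and WT averaged over both times (cKO minus WT, rlog scale) for each tested gene of 5 lists; filled points had an adjusted p under 0.05 in limma, and the bar is the list's median. The medians were -0.45 for the AP-1 genes, -0.66 for early response genes outside AP-1, -0.30 for genes with AP-1 sites, -0.20 for other bZIP relatives and 0.04 for kinases and factors that act on AP-1.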

How the data were processed

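Poly(A) RNA of 8 BMDM samples was sequenced after 15 PCR cycles, per the labels' protocols. GRCm38, HISAT2 2.1.0, featureCounts, DESeq2 and CASAVA are named, per the submitters' processing notes, with no roles. The authors deposited 1 table of rlog values, a log2 scale, and per the file headers it also holds the authors' results of 4 comparisons as log2 fold changes with raw and adjusted p-values. Read counts were not used here, so depth is unknown and no counting interval can be given. The transformation shrinks differences of genes with few reads.

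Genes were kept at a mean rlog of 3 or more, and these 11543 were fitted with limma 3.58.1 in R 4.3.3 (4 group means, 8 samples, variance trend), with 4 residual and 4.4 prior degrees of freedom. The Benjamini-Hochberg adjustment covers all genes tested, with a threshold of 0.05. The fit was tested on simulated data. The members and lists were chosen with earlier results of these data known. All members are named. Of each other list up to 2 of the largest rises and falls past the threshold are named where the 2 groups do not overlap, without that condition for the average of both times; Il6, Il1b and Ppp1r15a after LPS were named after their values were seen. Some genes that this rule takes are not reported here. For each member the 3 genes of highest r were found, leaving out clone, Rik and Gm names. Alternatives were other filters, variance models, scalings, blocks, sample sets and leaving out each sample. A fit without 1 sample leaves a lone sample, assumed to vary like the other groups.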

Additional observations from a re-analysis of the deposited data

How the results depend on the processing

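The members called were 5 for LPS in cKO, 7 for LPS in WT, 0 for cKO against WT after LPS, 1 at 0 h, 4 averaged over both times and 0 in the interaction. With no filter on low values these became 3, 3, 0, 0, 1 and 0. At 0 h the 1 call, Jun, was 0 with a mean rlog of at least 5, 0 without a variance trend, 0 with a robust fit and 0 in the 4 samples alone, and after LPS the 4 samples alone gave 2. Leaving out 1 sample gave 1 to 6 for LPS in cKO, 4 to 6 for LPS in WT, 0 to 3 after LPS, 0 to 1 at 0 h, 1 to 5 averaged and 0 in the interaction. The cause of these changes was not tested. Of 873 single member values under alternatives 788 kept their side of the threshold and direction of call, 65 lost a call, 20 gained one, and 23 changed sign without a call.

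With the replicate number as a block, 4 members were lower after LPS, Jun (adjusted p = 0.0187), Junb (adjusted p = 0.0199), Fos (adjusted p = 0.00723) and Fosb (adjusted p = 0.0388). At 0 h 2 were, Jun (adjusted p = 0.00881) and Fos (adjusted p = 0.0227), and 5 averaged over both times, with Batf (adjusted p = 0.049), and 5 and 7 were called for LPS in cKO and WT. The early response genes outside AP-1 then had 8 calls after LPS and 4 at 0 h. Within genotype the block gave 6 for LPS in cKO, with Fosb (adjusted p = 0.00606), and 7 in WT. The gaps between replicates correlated over genes at r = 0.31 between the cKO groups, 0.22 between the WT groups, 0.20 between genotypes after LPS and -0.04 at 0 h. Whether a number marks a shared animal cannot be told from the labels, so the reported fit has no block.

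Over all genes the count for cKO against WT after LPS was 458, and 208 with no filter, 301 without a trend, 235 under quantile normalization, 804 with the block and 0 to 582 with 1 sample left out. At 0 h it was 29, and 114, 9, 28, 72 and 2 to 128 in the same order, with 0 in the 4 samples alone. Averaged it was 810, and 359 with no filter and 109 to 775 with 1 sample left out. The interaction had 0, and 10 with no filter. The LPS count in cKO was 4275, and 2684 without cKO LPS replicate 2. Depth is unknown, so what it limits cannot be stated beyond Fosl1, too low to test.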

Other observations

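Among 20 tested bZIP relatives of AP-1, LPS raised 5 and lowered 4 in cKO and raised 4 and lowered 3 in WT, beside 37.0% of all genes called in cKO and 42.2% in WT. These counts lie near the background and are no result about the relatives as a group. Batf2, an interferon-induced relative of Batf, rose by 3.82 (SE 0.21, adjusted p = 1.8e-05) in cKO and by 3.49 (SE 0.21, adjusted p = 1.44e-05) in WT. Batf3, known for its role in dendritic cell development, fell by 1.41 (SE 0.24) in cKO and by 1.75 (SE 0.24) in WT, so that the 3 Batf genes did not move alike: Batf and Batf2 rose and Batf3 fell. Mafk, a small Maf gene like Maff, rose by 1.16 in cKO and also in WT (adjusted p = 0.00128), and Creb1 by 1.03 in cKO and by 1.06 in WT. The calls of Batf2 and Batf3, of Mafk in cKO and of Creb1 in WT held in 17 of 17 alternatives each. Between genotypes, averaged over both times, Crem (-0.90, adjusted p = 0.0386) and Creb5 (-0.44, adjusted p = 0.0304) fell and Cebpd (0.67, adjusted p = 0.0459) rose, and those calls held in 7 of 15, 6 of 15 and 4 of 14 alternatives. The 3 calls became 0 without WT 0 h replicate 1, WT LPS replicate 1 or cKO 0 h replicate 1 and without either one of the cKO LPS libraries, and 1 without WT 0 h replicate 2 or cKO 0 h replicate 2.

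Of 27 kinases and factors that act on AP-1, LPS raised 7 and lowered 4 in cKO and raised 8 and lowered 5 in WT, again near those background shares. Mapkapk2, a kinase downstream of p38, rose by 1.84 in cKO and by 1.78 in WT, and Map2k1, the MEK1 gene, by 1.67 in cKO and by 1.75 in WT. Map3k1 fell by 1.83 in cKO and by 2.13 in WT, and Rps6ka1 by 1.23 in cKO and by 1.54 in WT. The 11 calls in cKO became 7 without cKO 0 h replicate 1, 6 without cKO LPS replicate 1, 6 with no filter and 7 without cKO LPS replicate 2. After LPS, Map2k2, the MEK2 gene, was higher in cKO by 1.24 (SE 0.24, adjusted p = 0.0328), with 9.43 and 9.37 in cKO and 8.03 and 8.28 in WT. Mapk14, the gene of p38 alpha, was higher by 0.79 (SE 0.16, adjusted p = 0.0348), with 6.98 and 7.28 in cKO and 6.38 and 6.29 in WT. Both calls ended without any 1 of the 4 LPS libraries, with no filter and under quantile normalization (adjusted p = 0.243 at most), that of Map2k2 also without the variance trend and that of Mapk14 in the 4 samples alone. Averaged over both times Map2k2 rose by 0.85 (adjusted p = 0.0254), a call that held in 9 of 15 alternatives. At 0 h 0 of 27 passed with limma, and 2 had an unadjusted p under 0.05.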
